A study of Homo sapiens with 5 samples.

Results

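The major histocompatibility complex (MHC) is the gene-dense stretch of the short arm of chromosome 6 that holds the HLA genes. It was examined in VCaP, an established human prostate cancer cell line that responds to androgen, by chromatin immunoprecipitation followed by sequencing (ChIP-seq). Antibodies had been used against 2 marks of histone H3, acetylation of lysine 27 (H3K27ac) and monomethylation of lysine 4 (H3K4me1). Each mark had 2 libraries of cultured cells, with no treatment, genotype or time in the labels, and the study also holds 1 input library, which is chromatin sequenced without antibody and has no peak list used here. The labels do not say whether replicates were separate cultures, so their spread may be technical. All libraries come from the same line, and nothing below extends beyond it. The deposited lists give the position of each peak and no height, enrichment or significance. The number of reads is unknown, so density, width and overlap of peaks are the quantities that can be compared.

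A peak belonged to the MHC if it started between chr6:28477000 and chr6:33449000 of the human build hg19, a span of 4.972 Mb. The 4 lists held 935 such peaks of 363159 in all, with 189 and 222 from H3K27ac replicates 1 and 2. The H3K4me1 libraries gave 250 and 274. The span was divided from the short-arm end inwards. The class I side ran to 31.4 Mb and held 502 peaks, class III ran on to 32.2 Mb with 171 peaks, and class II to 33.2 Mb with 149 peaks. A remainder of 0.249 Mb beyond class II held 113 peaks. The rest of chromosome 6, from its first to its last peak, held 17806 peaks over 165.999 Mb.

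H3K27ac is laid down by the acetyltransferases p300 and CBP and marks active promoters and active enhancers. H3K4me1 marks enhancers, active or not, and the flanks of active promoters, whose centres carry trimethylation of the same lysine instead. Class I genes encode the chains that show peptides from inside the cell to CD8+ T cells, and most cell types express them. The class II genes of the HLA-DR, HLA-DQ and HLA-DP families present peptides from outside the cell. They are normally active in antigen-presenting cells, under the regulator CIITA, and in other cells after exposure to interferon gamma. Class III holds no HLA genes. It is densely packed with genes of mixed function, such as TNF (a cytokine), C2 and CFB (complement components), HSPA1A (a heat shock chaperone), EHMT2 (a histone methyltransferase) and VARS1 (a transfer RNA synthetase). After the class II genes lie RING1 (a Polycomb subunit) and RPS18 (a ribosomal protein). TAPBP (the class I peptide-loading factor tapasin) and DAXX (a histone chaperone) lie there too.

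No gene annotation of hg19 was used here, so no gene was assigned to any peak. Gene content can only be given by the order of genes in a RefSeq table of another build, GRCh38.p14, for blocks chosen after the peak positions were known. In that order, 58 protein-coding genes run from DDX39B to NOTCH4 in class III. In class II, 7 run from HLA-DRA to HLA-DQB2 and 11 from HLA-DOB to HLA-DPB1. On the class I side, 16 run from OR2W1 to OR2H2, mostly olfactory receptor genes. After the class II genes, 10 run from RING1 to DAXX. The order alone does not place these blocks against the subregion boundaries used here.

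Both marks were denser in the MHC than in the rest of chromosome 6, H3K27ac by the larger factor. H3K27ac replicates 1 and 2 had 38.0 and 44.7 peaks per Mb in the MHC, against 16.1 and 19.3 in the rest of the chromosome. H3K4me1 replicates 1 and 2 had 50.3 and 55.1 peaks per Mb, against 34.2 and 37.7. In all 4 libraries the MHC was the denser place, and for neither mark did the values of the libraries in the MHC and outside it overlap. The density ratio was 2.34 ± 0.0394 (SD, n = 2) for H3K27ac and 1.47 ± 0.00566 (n = 2) for H3K4me1. An exact two-sided sign-flip test over the 4 libraries gave p = 0.125, the smallest value that 4 libraries allow (0.5 after Benjamini-Hochberg adjustment over 6 tests). The gap between the marks was 0.67 on the log2 scale and exceeded the spread between replicates of either mark. With 2 libraries against 2, the exact two-sided permutation test of that gap cannot give less than its value of 0.333 (adjusted 0.5).

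The arms of the chromosome differed as well. On the long arm side, H3K27ac replicates 1 and 2 had 13.7 and 16.7 peaks per Mb, and on the short arm side outside the MHC 21.9 and 26.1. Against the short arm side alone, the H3K27ac density of the MHC was 1.73 and 1.71 times as high. For H3K4me1 these ratios were 1.30 and 1.34. The short arm side includes a stretch poor in H3K4me1, from 3.617 to 18.533 Mb. In its parts of the length of the MHC, H3K4me1 replicate 1 had 20.9, 15.7 and 7.64 peaks per Mb. Replicate 2 had 23.1, 14.1 and 7.24. Other parts of that length on this side had 29.8 to 71.2 and 32.6 to 77.2, ranges that take in the MHC. The ratios without the poor stretch were not computed. The stretches next to the MHC were themselves dense in both marks. The 1 Mb before it held 47 and 61 H3K27ac peaks and 61 and 70 H3K4me1 peaks, and the 1 Mb after it 45 and 51 H3K27ac peaks and 97 and 83 H3K4me1 peaks.

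H3K4me1 peaks outnumbered H3K27ac peaks in the MHC as in the rest of the chromosome, but by less. Across the 4 pairings of an H3K4me1 with an H3K27ac library, there were 1.13 to 1.45 H3K4me1 peaks per H3K27ac peak in the MHC and 1.77 to 2.35 in the rest of the chromosome. The short arm side outside the MHC gave 1.48 to 1.87, which does not overlap the range in the MHC. The 1 Mb before the MHC gave 1.0 to 1.49, which takes in the whole range of the MHC. Chromosome 6 was also divided into windows of the length of the MHC, 32 of them between 3.617 and 167.693 Mb. Both ends of the chromosome and the stretch from 58.309 to 63.281 Mb were left out. Among these 32 windows, the MHC had the second highest H3K27ac density in both libraries. The highest, 40.0 and 49.1 peaks per Mb, was in the window that ends where the MHC begins, chr6:23504999-28476999. In H3K4me1 density the MHC was sixth in both libraries. Its ratio of replicated H3K4me1 to replicated H3K27ac regions, 1.10, was the fourth lowest of the 32, against a median of 1.93 over the other windows. The lower ratios, 1.01, 0.803 and 0.206, came from adjoining windows between 3.617 and 18.533 Mb. A replicated region here is a stretch of overlapping peaks that holds at least 1 peak of each library of a mark.

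**Figure D1:**
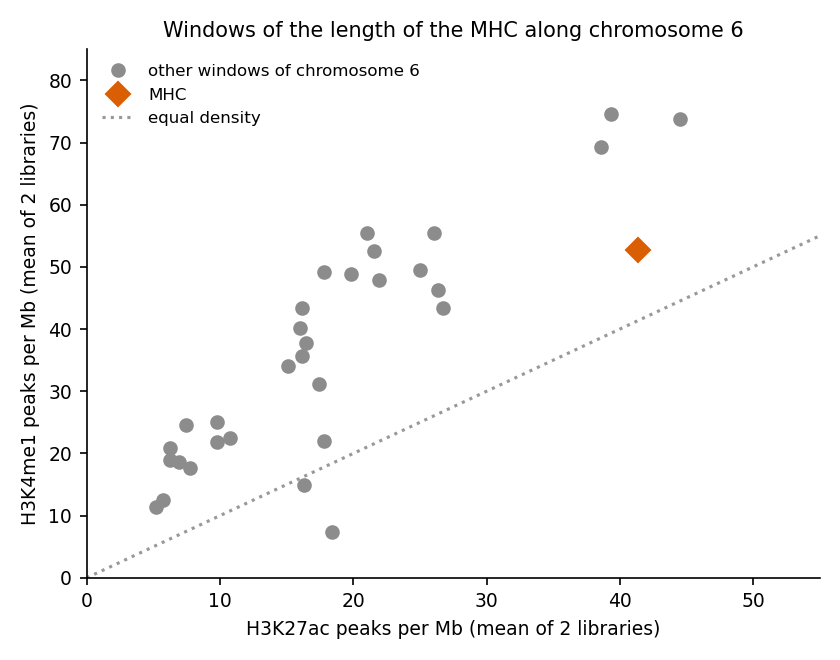
Each point is 1 of 32 windows of chromosome 6 with the length of the MHC, placed by H3K27ac peaks per Mb (horizontal) and H3K4me1 peaks per Mb (vertical), each the mean of 2 libraries, and the dotted line marks equal density. The MHC (diamond) sits among the 4 windows densest in H3K27ac and has the lowest H3K4me1 density of those 4.

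H3K27ac peaks had higher median widths in the MHC than in the rest of chromosome 6, and H3K4me1 peaks did not. The median H3K27ac width was 1035 and 794.5 bp in replicates 1 and 2, against 840 and 580 bp in the rest of chromosome 6. For H3K4me1 the medians were 405.5 and 573.5 bp in the MHC and 411 and 598 bp outside it. The stretches next to the MHC had wide H3K27ac peaks too, with medians of 1248 and 919 bp in the 1 Mb before it and 1265 and 783 bp in the 1 Mb after it. On the log2 scale the MHC differed from the rest of the chromosome by 0.30 and 0.45 for the H3K27ac libraries and -0.019 and -0.060 for the H3K4me1 libraries. Each library has its own smallest peak width, so widths are compared within a library and then between marks. The sign-flip test over all 4 libraries gave an exact p of 0.5 (adjusted 0.6). It pools both marks, whose contrasts had opposite signs, so it does not test the width contrast of either mark. A test between the marks was added after their libraries had been seen to separate, and such a separation fixes its exact p at 0.333 (adjusted 0.5).

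More peaks and wider peaks together made H3K27ac cover a larger share of the MHC. H3K27ac peaks covered 5.73 and 5.52% of its bases in replicates 1 and 2, against 2.08 and 1.90% of the rest of the chromosome, which is 2.75 and 2.90 times as much. H3K4me1 peaks covered 2.82 and 4.27% of the MHC and 1.90 and 3.02% of the rest, or 1.48 and 1.41 times as much. In the rest of the chromosome the values of the marks overlapped, while in the MHC both H3K27ac libraries covered more bases than either H3K4me1 library. The 1 Mb before the MHC had the same order, with 7.66 and 7.18% in H3K27ac and 2.93 and 5.18% in H3K4me1. H3K27ac covered 7.45 and 7.13% of the 1 Mb after it, so both flanks lay above the MHC in H3K27ac coverage.

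**Figure D2:**
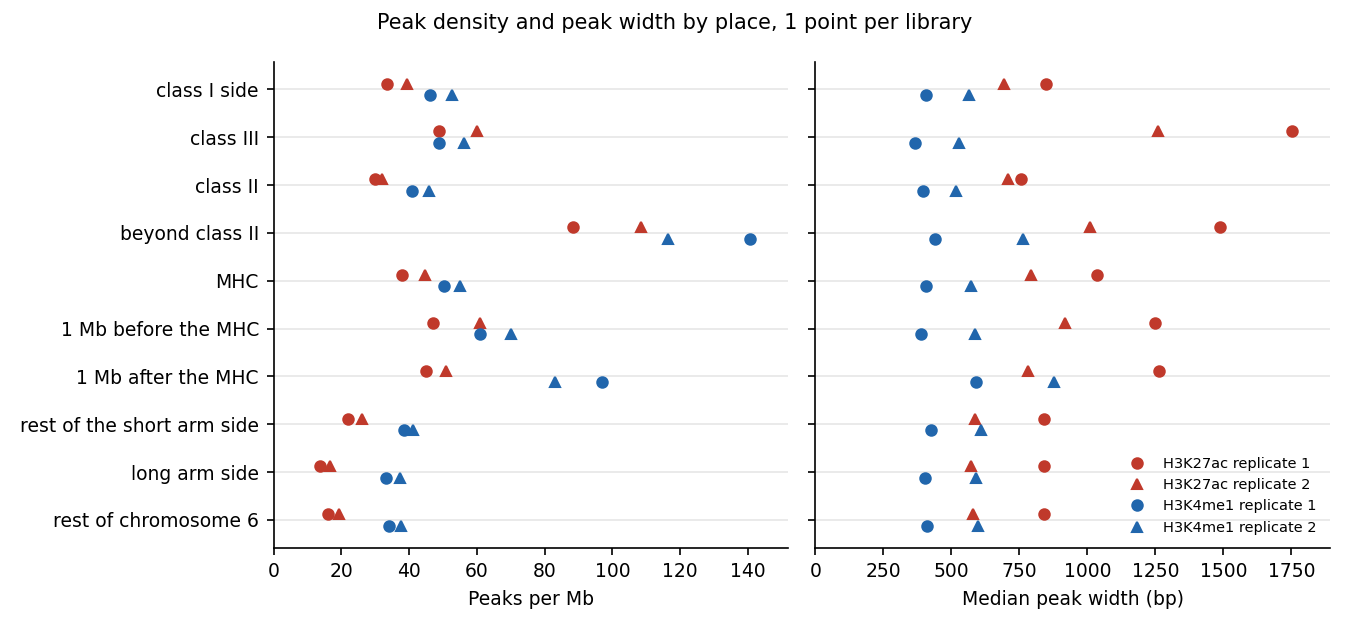
Peaks per Mb (left) and median peak width in bp (right) for each place, with 1 point per library (circles replicate 1, triangles replicate 2, red H3K27ac, blue H3K4me1). H3K27ac points of the MHC and of its subregions lie to the right of those in the rest of chromosome 6 in the density plot, and H3K27ac widths stand furthest right in class III.

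Class III had the densest and the widest H3K27ac peaks of the 3 classes. It held 39 and 48 H3K27ac peaks in replicates 1 and 2, a density of 48.75 and 60 per Mb, or 3.07 ± 0.0497 times the rest of chromosome 6 (SD, n = 2). The median width there was 1751 and 1259 bp, 2.08 and 2.17 times that in the rest of the chromosome. H3K27ac covered 9.53 and 9.24% of class III, 4.57 and 4.85 times the share outside the MHC. H3K4me1 was far closer to its level in the rest of the chromosome. Its libraries held 39 and 45 peaks there, or 48.75 and 56.25 per Mb, and covered 2.55 and 3.93% of the bases, 1.34 and 1.30 times the rest. The median H3K4me1 width was 365 and 528 bp, shorter than in the rest of the chromosome in both libraries. Class III had 0.8125 to 1.15 H3K4me1 peaks per H3K27ac peak over the 4 pairings, a range that lies below that of the rest of chromosome 6 and overlaps that of the MHC as a whole.

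The class I side had a lower H3K27ac density than class III, and its marks came in blocks. It held 98 and 115 H3K27ac peaks in replicates 1 and 2 (33.5 and 39.3 per Mb) and 135 and 154 H3K4me1 peaks (46.2 and 52.7 per Mb). Those densities were 2.06 ± 0.0361 and 1.37 ± 0.0336 times the rest of the chromosome (SD, n = 2 each). Median H3K27ac widths were 849 and 694 bp, close to the 840 bp outside the MHC in replicate 1 and above the 580 bp in replicate 2. In pieces of 500 kb, the first, from 28.477 Mb, held 33 and 40 H3K27ac and 48 and 47 H3K4me1 peaks. The next, from 28.977 to 29.477 Mb, held 1 and 2 H3K27ac and 2 and 7 H3K4me1 peaks. Peaks were dense again from 30.477 to 30.977 Mb, with 31 and 35 H3K27ac and 39 and 38 H3K4me1 peaks. The pieces on either side of that one, the second of them shorter, held 12 and 14 H3K27ac peaks each. All libraries placed the dense and the empty pieces alike.

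Class II had the lowest H3K27ac peak density of the 3 classes at the boundaries used, and its peaks lay mostly in the part nearer the centromere. It held 30 and 32 H3K27ac peaks in replicates 1 and 2 (30 and 32 per Mb), 1.76 ± 0.150 times the density of the rest of chromosome 6 (SD, n = 2). The median H3K27ac width, 755.5 and 709.5 bp, was 0.899 times that of the rest of the chromosome in replicate 1 and 1.22 times in replicate 2, so the libraries differed in direction. H3K27ac covered 4.45 and 4.34% of class II, slightly more than the 4.21 and 4.03% of the class I side. H3K4me1 gave 41 and 46 peaks (41.0 and 46.0 per Mb), 1.21 ± 0.0154 times the rest. Divided into pieces of 500 kb, a division made after the peaks had been seen, the piece from 32.2 to 32.7 Mb held 9 and 6 H3K27ac and 11 and 14 H3K4me1 peaks. The piece from 32.7 to 33.2 Mb held 21 and 26 H3K27ac and 30 and 32 H3K4me1 peaks. Replicated H3K27ac regions covered 0.819% of the first piece and 8.35% of the second. The density of class II depends on where it ends: with its boundaries moved up by 100 kb it was 38.0 H3K27ac and 56.0 H3K4me1 peaks per Mb as means of both libraries, against 31.0 and 43.5. The class I side then had 35.7 H3K27ac peaks per Mb, so that the order of these classes turned.

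The remainder beyond class II was the densest of the 4 subregions in both marks. It held 22 and 27 H3K27ac peaks in replicates 1 and 2 (88.4 and 108 per Mb) and 35 and 29 H3K4me1 peaks (141 and 116 per Mb). H3K27ac covered 16.5 and 15.9% of its bases, and H3K4me1 8.92 and 12.0%. It makes up 0.249 Mb only, and the excess of the MHC did not rest on it: with these peaks counted among the rest of the chromosome, the mean density contrast was 1.11 on the log2 scale for H3K27ac and 0.43 for H3K4me1, against 1.23 and 0.55 with them.

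**Figure D3:**
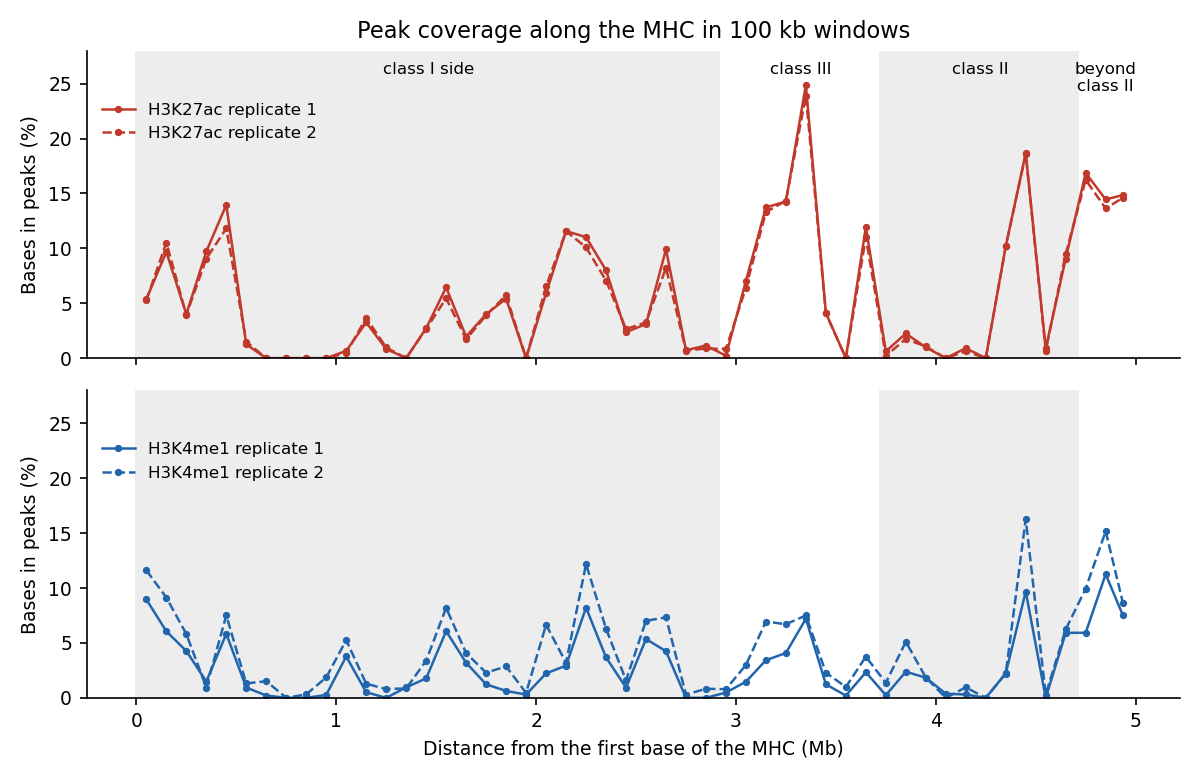
Percentage of bases inside peaks in consecutive 100 kb windows (the last is shorter), by distance from the first base of the MHC, for H3K27ac (upper) and H3K4me1 (lower), with replicate 1 as a solid and replicate 2 as a dashed line. Shading separates the 4 subregions, the H3K27ac lines reach their maximum in class III, and both marks fall to 0 or close to it in the same part of the class I side.

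At 100 kb the marks rose and fell along the same stretches with different proportions. Of 49 full windows, 10 held no replicated H3K27ac region and 10 no replicated H3K4me1 region, while H3K27ac covered more than 10% in 13 windows and H3K4me1 in 4. H3K27ac coverage exceeded H3K4me1 coverage in 30 windows and was below it in 14. Across the 49 windows, coverage of the marks correlated with a Spearman's rho of 0.769 and a Pearson's r of 0.696. These windows share libraries and neighbours, and the values only describe them.

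The window with most H3K27ac was chr6:31777000-31876999 in class III. H3K27ac replicates 1 and 2 covered 24.9 and 23.9% of it, with 10 and 13 peaks, and H3K4me1 replicates 1 and 2 covered 7.20 and 7.50%. The next was chr6:32877000-32976999 in class II, where H3K27ac covered 18.7 and 18.6% and H3K4me1 9.68 and 16.3%. The third, chr6:33177000-33276999 across the end of class II, had 16.9 and 16.2% in H3K27ac and 5.93 and 9.94% in H3K4me1. All 3 carried more H3K27ac than H3K4me1 in each library.

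The windows with most H3K4me1 were chr6:33277000-33376999 beyond class II, the class II window just named, and chr6:30677000-30776999 on the class I side. H3K4me1 replicates 1 and 2 covered 11.3 and 15.2% of the first of these and 8.22 and 12.2% of the last. H3K27ac replicates 1 and 2 covered 14.5 and 13.6% of the first and 11.0 and 10.1% of the last. Only the class II window was among the leading 3 for both marks.

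Of the 10 windows with no replicated H3K27ac region and the 10 with no replicated H3K4me1 region, 5 were the same. Since all these windows tie at 0, the first 3 along the chromosome are given for each mark, which for both are the 3 from chr6:29077000 to chr6:29376999. No H3K27ac peak of either library lay there, and H3K4me1 replicates 1 and 2 had 1 and 3 peaks, all outside replicated regions. The longest stretch of the MHC without any H3K27ac peak was chr6:28985067-29491381 (506 kb), inside which H3K4me1 replicates 1 and 2 had 3 and 8 peaks. The next were chr6:29720916-29932259 (211 kb, 3 and 4 H3K4me1 peaks) and chr6:30313762-30483850 (170 kb, 1 and 3 H3K4me1 peaks). All 3 lie on the class I side.

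H3K4me1 was missing over shorter stretches. The longest without an H3K4me1 peak, chr6:29080080-29358068 (278 kb), had no H3K27ac peak either. In class II, chr6:32669931-32812693 (143 kb) had no H3K4me1 peak and held 2 and 3 H3K27ac peaks in replicates 1 and 2. The third, chr6:30900269-31039904 on the class I side (140 kb), was free of both marks.

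The overlap between marks differed from the rest of chromosome 6 in opposite directions for each mark. Of 212 merged H3K27ac regions in the MHC 167 were replicated, and of 306 merged H3K4me1 regions 183 were. A replicated H3K4me1 region touched 90 of the 167 H3K27ac regions by at least 1 bp, or 53.9% (exact 95% interval 46.0 to 61.6%). In the rest of chromosome 6 it was 66.9% (64.9 to 68.8%), and over all autosomes and chromosome X 73.5%. Of the 183 H3K4me1 regions of the MHC, 103 touched a replicated H3K27ac region, or 56.3% (48.8 to 63.6%), against 44.0% (42.4 to 45.5%) in the rest of the chromosome and 47.1% over all autosomes and chromosome X. These intervals cover counting error over regions only, since regions of 1 library are not independent samples.

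By library the differences were alike within each mark. On replicated regions of the other mark lay 105 of 189 and 113 of 222 H3K27ac peaks of the MHC (55.6 and 50.9%) against 65.1 and 63.7% in the rest of chromosome 6. The corresponding counts were 129 of 250 and 137 of 274 H3K4me1 peaks (51.6 and 50%) against 38.4 and 34.2%. The differences were -9.52 and -12.8 percentage points for H3K27ac and 13.2 and 15.8 points for H3K4me1. The sign-flip test over the 4 libraries gave an exact p of 0.75 (adjusted 0.75). It pools both marks, whose differences had opposite signs and partly cancel, so it does not test the difference of either mark. The test between marks was again added after the separation of the libraries had been seen, which fixes its exact p at 0.333 (adjusted 0.5).

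The size of both differences depended on what they were measured against. Against the short arm side alone, the mean difference for H3K27ac peaks shrank from -11.2 to -4.97 points. There, 59.3 and 57.1% of the H3K27ac peaks of replicates 1 and 2 lay on replicated H3K4me1 regions. The short arm side takes in the adjoining windows from 3.617 to 18.533 Mb, where H3K4me1 covered 1.27, 1.95 and 0.158% of bases. In these windows 38.0, 39.4 and 8.82% of replicated H3K27ac regions carried H3K4me1. The other windows of that side had 61.8 to 85.4%, all above the 53.9% of the MHC. The difference without that stretch was not computed. With overlap required over 50% of the shorter region, the mean difference from the rest of chromosome 6 was -17.8 points for H3K27ac peaks. For H3K4me1 peaks it was 5.36 instead of 14.5 points. Among the 32 windows of chromosome 6, the MHC ranked 10th from the lowest in the share of H3K27ac regions with H3K4me1. In the share of H3K4me1 regions with H3K27ac it ranked second from the highest. The window above it, chr6:13560997-18532997, had 57.1% of only 14 regions.

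**Figure D4:**
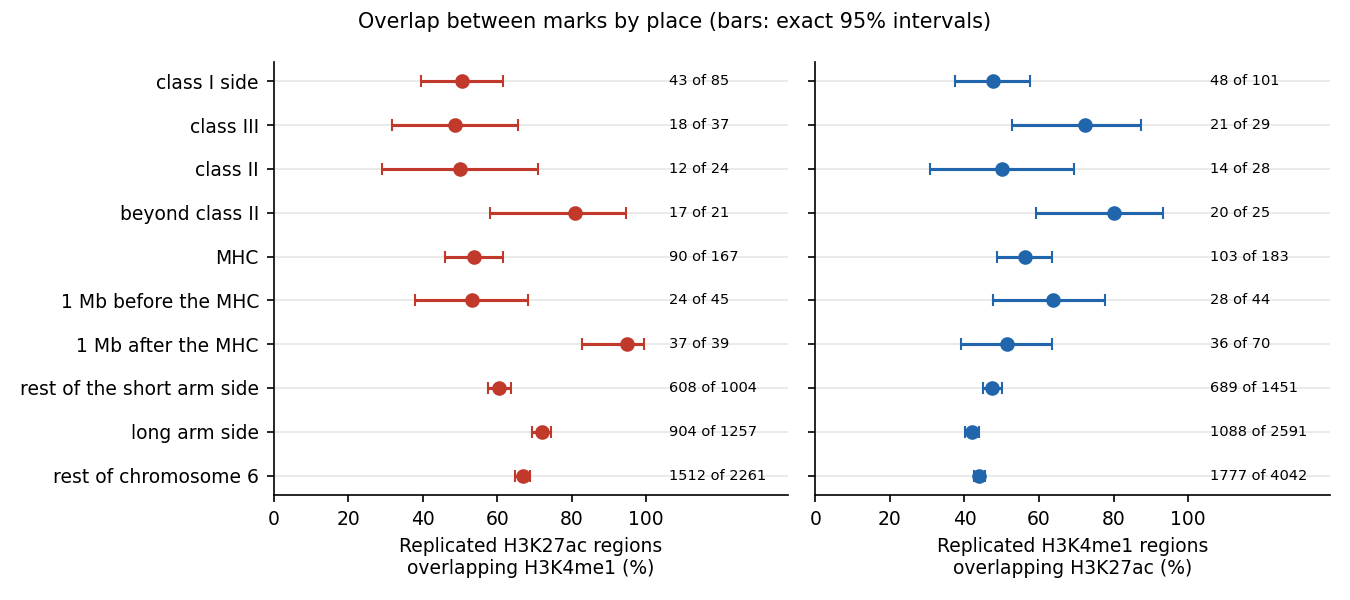
Share of replicated H3K27ac regions that overlap a replicated H3K4me1 region (left, %) and the reverse (right, %) for each place, with exact 95% intervals and the counts beside them. The MHC point lies to the left of the rest of chromosome 6 in the H3K27ac panel and to the right of it in the H3K4me1 panel, and the remainder beyond class II lies to the right of the 3 classes in both.

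Within the MHC the 3 classes had similar shares of H3K27ac regions with H3K4me1, and the remainder beyond class II a higher one. The counts were 43 of 85 regions on the class I side (50.6%), 18 of 37 in class III (48.6%), 12 of 24 in class II (50%) and 17 of 21 beyond class II (81.0%, exact 95% interval 58.1 to 94.6%). Seen from H3K4me1, 48 of 101 regions on the class I side (47.5%) and 14 of 28 in class II (50%) touched H3K27ac. In class III it was 21 of 29 (72.4%, 52.8 to 87.3%) and beyond class II 20 of 25 (80%, 59.3 to 93.2%). For each mark the exact intervals of the 3 classes overlap one another at these numbers of regions. The flanks differed from each other: 24 of 45 H3K27ac regions in the 1 Mb before the MHC carried H3K4me1 (53.3%), and 37 of 39 in the 1 Mb after it (94.9%).

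H3K27ac regions without a replicated H3K4me1 region were not all free of H3K4me1. Of the 77 in the MHC, 32 touched an H3K4me1 peak of a single library, and 45 touched none. The 45 make up 26.9% of the H3K27ac regions of the MHC, against 22.4% of those in the rest of chromosome 6. That share was 28.6% on the short arm side outside the MHC and 17.4% on the long arm side. In the 1 Mb before the MHC it was 33.3%, and in the 1 Mb after it 2.56%. The MHC was thus not above the short arm side as a whole in this share. That side takes in the stretch poor in H3K4me1 from 3.617 to 18.533 Mb, and the share without it was not computed. Of the bases in replicated H3K27ac regions, 24.9% lay in H3K4me1 regions in the MHC and 18.0% in class III, against 46.5% in the rest of the chromosome. Of the 80 H3K4me1 regions without replicated H3K27ac, 59 touched no H3K27ac peak of either library, against 1902 of 2265 in the rest of chromosome 6. They make up 32.2% of all replicated H3K4me1 regions of the MHC, a lower share than the 47.1% in the rest of the chromosome.

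Regions with the other mark were the wider ones. H3K27ac regions of the MHC had a median width of 1898 bp with H3K4me1 and 925 bp without, and in the rest of chromosome 6 1188 and 1055 bp. H3K4me1 regions of the MHC measured 931 bp with H3K27ac and 668 bp without, and in the rest of chromosome 6 1101 and 731 bp. Overlap counts from 1 bp, so a wider region touches the other mark more easily. The part of this in these widths was not tested. In 5 width classes that divide the H3K27ac regions of the rest of the chromosome evenly, the MHC and the rest were close in the widest class, over 2281 bp, with 76.1 and 78.3% on H3K4me1. They stood furthest apart in the class from 529 to 892 bp, where 14 of 41 regions of the MHC carried H3K4me1 (34.1%, exact 95% interval 20.1 to 50.6%) against 66.6% (62.0 to 70.9%) outside.

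H3K4me1 regions without H3K27ac lay near H3K27ac in the MHC. Of the 80, 50 lay within 5 kb of a replicated H3K27ac region (62.5%), against 27.9% in the rest of chromosome 6. Their median distance was 3022.5 bp, against 16168 bp. H3K27ac regions without H3K4me1 had a median distance of 7052 bp to the nearest H3K4me1 region, against 13489 bp outside the MHC. Distances also follow the density of the other mark, which is higher in the MHC, and its part in these values was not tested.

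The share of wide H3K27ac regions with H3K4me1 in their middle was lower in the MHC than in the rest of the chromosome with either H3K4me1 library, a comparison described here without a test over libraries. Wide means over 1450 bp, the 60th percentile of widths in the rest of chromosome 6, which took in 78 of the 167 regions. H3K4me1 covered the middle base of 11 of them (14.1%, exact 95% interval 7.26 to 23.8%), against 30.9% (27.9 to 34.1%) of 902 wide regions in the rest of the chromosome. With H3K4me1 replicate 1 alone it was 8.97% against 21.8%, and with replicate 2 alone 14.1% against 30.3%. At 0.75 of the way from the middle to either end, H3K4me1 covered 31.4% in the MHC and 49.9% outside it, as means of both sides. In both places H3K4me1 was thus more frequent towards the ends than in the middle.

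Many wide regions of the MHC carried H3K4me1 on 1 side. Among the 78 were 26 whose middle was free of H3K4me1 and that carried it at a single outer position, and 4 that carried it at both. Another 6 had it at all 3 positions and 37 at none. In the rest of chromosome 6 the same counts were 172, 127, 208 and 324 of 902. Class III, with 24 wide regions among its 37, had H3K4me1 in the middle of 2, at a single outer position in 7, on both sides of a free middle in 0 and at none of the 3 positions in 15. A count of 0 here allows up to 3 of the 24. Counts of this size do not separate class III from the other subregions.

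**Figure D5:**
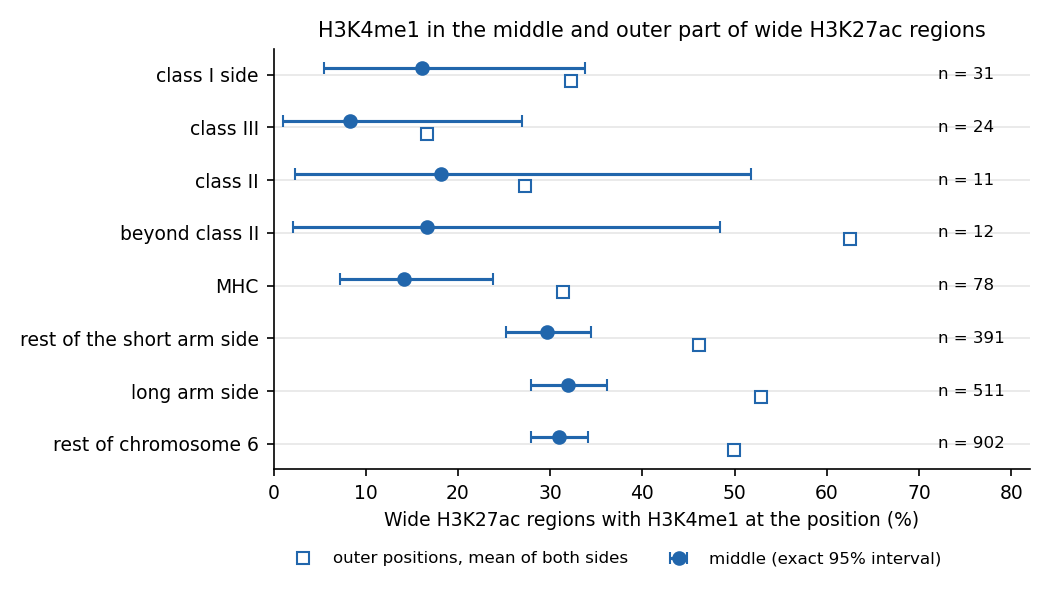
Percentage of wide H3K27ac regions with H3K4me1 over their middle base (filled circles, exact 95% intervals) and at the outer positions (open squares, mean of both sides), by place, with the number of wide regions at the right. The circles of the MHC and its subregions lie to the left of those outside it, and the squares lie to the right of the circles in all places drawn.

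The widest regions differed in how much H3K4me1 they carried. The widest H3K27ac region of the MHC, chr6:33238492-33245212 beyond class II, spanned 6721 bp and was 1 peak in each library, of 6692 and 6472 bp. H3K4me1 replicates 1 and 2 each had 2 peaks in it, which covered 30.0 and 41.9%. The next, chr6:31702167-31708827 in class III (6661 bp), was 1 peak of 6560 bp in H3K27ac replicate 1 and 1 of 6614 bp in replicate 2, with H3K4me1 over 28.2 and 37.0%. The second widest of class III, chr6:31801595-31806696 (5102 bp), had 4940 and 4990 bp of H3K27ac in 1 peak per library and H3K4me1 over only 7.88 and 6.47%.

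On the class I side the widest were chr6:30848881-30854548 (5668 bp, H3K4me1 over 43.7 and 48.0%) and chr6:31151133-31156360 (5228 bp, 11.0 and 26.7%). In class II they were chr6:32886556-32891886 (5331 bp, 15.2 and 34.9%) and chr6:33165542-33170544 (5003 bp, 48.9 and 51.3%). The second widest beyond class II was chr6:33264634-33268818 (4185 bp, 6.95 and 14.7%). Regions of nearly the same width thus ranged from under 10% to about 50% in H3K4me1.

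The widest H3K4me1 regions were shorter, and some carried little H3K27ac. The widest, chr6:33286376-33290041 beyond class II (3666 bp), was 3 peaks in H3K4me1 replicate 1 and 1 in replicate 2, and H3K27ac replicates 1 and 2 covered 30.6 and 21.8% of it. The next 2 lay close together in class II. No H3K27ac peak touched chr6:32949285-32952462 (3178 bp), and chr6:32943531-32946678 (3148 bp) held 1 narrow H3K27ac peak per library, over 10.7 and 9.66% of it. The peaks of the libraries did not overlap each other, so they formed no replicated H3K27ac region. H3K27ac covered 48.5 and 39.1% of chr6:30172771-30175780 on the class I side (3010 bp). It covered all of chr6:33241889-33244802 (2914 bp), which lies inside the widest H3K27ac region.

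H3K27ac regions of the MHC also stood closer together. The median gap to the next H3K27ac region was 11.3 kb, against 21.3 kb in the rest of chromosome 6, and in class III it was 9.35 kb. Joined where they were within 12.5 kb of each other, the 167 regions formed 81 domains, 16.3 per Mb against 8.30 in the rest of the chromosome. A single region made up 46.9% of the domains in the MHC and 65.2% of those outside. Domains with more than 10 kb of H3K27ac numbered 5 in the MHC and held 25.8% of its H3K27ac length. The rest of chromosome 6 had 39 such domains, with 17.2% of its H3K27ac length. Gaps and domains also follow the density of replicated H3K27ac regions, 33.6 per Mb in the MHC and 13.6 in the rest of the chromosome. The part of density in these values was not tested.

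The 5 leading domains lay in class III, class II and beyond. The first, chr6:33238492-33292325, held 21.6 kb of H3K27ac in 6 regions and ranked sixth on chromosome 6. H3K27ac replicates 1 and 2 covered 39.8 and 37.8% of it and H3K4me1 replicates 1 and 2 14.3 and 23.6%. The second, chr6:31761987-31806696 in class III, held 19.6 kb in 7 regions and ranked ninth. H3K27ac covered 42.8 and 42.0% of it and H3K4me1 6.50 and 6.44%, so its H3K4me1 coverage was well under that of the first in both libraries.

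The third, chr6:32853738-32891886 in class II, held 13.5 kb of H3K27ac, with H3K4me1 over 5.88 and 10.8% of its span. The fourth, chr6:31685741-31708827 in class III, held 10.5 kb with H3K4me1 over 13.9 and 24.4%, and the fifth, chr6:33376288-33397128 beyond class II, 10.3 kb with 22.0 and 26.8%. The class I side, although the largest subregion, had no domain with more than 10 kb of H3K27ac. Its leading domain held 9.94 kb of H3K27ac.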

How the data were processed

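Per the submitters' processing notes, bcl2fastq 2.17, Trimmomatic 0.33, Bowtie 1.1.2 and MACS2 2.1.0 were used with build hg19 (GRCh37). The sources used here do not give their roles, the peak threshold, the control or the handling of reads that map to several places. The MHC holds polymorphic and near-identical gene copies, and the lists hold 0 alternative sequences of it. Both the presence and the absence of peaks in such copies are therefore uncertain. The authors deposited 1 list of peak positions (bp) per immunoprecipitated library, with no score, so each library's depth is unknown. Starts, deposited from 0, are printed from 1.

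Peaks were placed by their start. Shares carry exact (Clopper-Pearson) 95% intervals. The domain distance was 12.5 kb. Libraries were tested with exact sign-flip and permutation tests, adjusted by Benjamini-Hochberg over 6 tests, none of which can reach 0.05. The width and share tests between marks were added later. Functions were tested on simulated intervals (Python 3.11.15, numpy 2.4.6, pandas 2.3.3, scipy 1.17.1). Named places are the widest regions, leading domains, emptiest stretches and extreme windows by fixed numbers of each. The members, subregions and lists were chosen with earlier results of these data known. Gene lists and cell type markers were not used, for want of hg19 annotation.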

Additional observations from a re-analysis of the deposited data

Results flagged for a closer look

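The log2 ratio of median peak width, MHC against the rest of chromosome 6, was above 0 in both H3K27ac libraries (mean 0.38) and below 0 in both H3K4me1 libraries (mean -0.040), so that every library of one mark moved against every library of the other. The share of peaks on the other mark showed the same opposition, with a mean difference of -11.2 percentage points for H3K27ac and 14.5 points for H3K4me1. Both were noticed from this separation, which by itself fixes an exact two-sided permutation p of 2 libraries against 2 at 0.333, so that p adds nothing to the values.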

How the results depend on the processing

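In 79 recomputations, no density or overlap contrast with the rest of chromosome 6 changed sign. The mean width contrast over both marks did not either. Some of the recomputed values could not change by construction, such as the H3K4me1 density without an H3K27ac library. No contrast could pass 0.05 under any setting, so no call could be lost. The density ratio ranged from 1.72 (short arm side as reference) to 2.43 (equal numbers of widest peaks) for H3K27ac and from 1.28 (other autosomes and X as reference) to 1.49 for H3K4me1. The mean width contrast over both marks was 0.17 on the log2 scale and 0.057 against the other autosomes and X. Taken by mark, in 18 recomputations added later, it stayed above 0 for H3K27ac and below 0 for H3K4me1, with -0.078 (short arm side), -0.16 (other autosomes and X) and -0.098 (without the remainder beyond class II) for the latter. The overlap difference was smallest for H3K27ac at -4.97 points (short arm side) and for H3K4me1 at 5.36 points (overlap of 50%); with peaks of either library it was -5.78 and 15.4 points, and against the other autosomes and X -18.4 and 11.7. The cause was not tested. With replicate numbers as a replicate block, the shares differed by -10.3 and 13.4 points. The block cannot change the density contrasts, 1.23 and 0.55, or the density gap between marks, 0.67. An exact sign-flip test of that gap by replicate number gave p = 0.5. Same-numbered libraries did not deviate together (r = -0.0383 over 1710 windows). With the class boundaries moved down by 100 kb, class II had 29 H3K27ac peaks per Mb, and moved up, 38.0 H3K27ac and 56.0 H3K4me1. With single replicates left out, the share of H3K27ac regions with H3K4me1 on the class I side ranged from 48.7 to 63.5%, the latter without H3K4me1 replicate 1. Domains numbered 111 with joining at 5 kb. Unknown depth limits every density and width.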
